A study of Mus musculus with 31 samples.

Results

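Per1, Per2 and Per3 are the 3 Period genes of the mouse, taken by gene symbol from a table of 48795 genes. The question of the series was what deltamethrin given during development does to the brain of mice; this pyrethroid holds sodium channels of neurons open. Total RNA was sequenced from aliquots of homogenised brain tissue, of which 13 carry the agent label control and 18 the label deltamethrin. The labels give no strain, sex, age, dose, litter or time of collection for either group. The 3 genes were chosen from the comparison of these groups, where all 3 had lower values in deltamethrin, and that comparison is therefore given as a description.

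Period proteins are the negative limb of the circadian clock. The transcription factors CLOCK and BMAL1 (gene Arntl) bind E-box elements and drive the Period and cryptochrome genes, and PER and CRY proteins return to the nucleus to repress them. Per1 and Per2 also respond quickly to neuronal activity through cAMP response elements (CRE), much as immediate early genes such as Fos do, and Per1 is a known target of the glucocorticoid receptor. Per3 is rhythmic as well but is largely dispensable for the clock itself. The counts were made on bulk brain tissue and not on the suprachiasmatic nucleus, the hypothalamic pacemaker.

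RefSeq (GRCm38.p6) gave promoter windows of 300 bases, from 250 before to 50 after the start, for 2 starts of Per1 and for 1 start of Per3. They are shown because the Period genes are compared here with activity-driven and clock genes. E-boxes and D-boxes are sites of clock factors, and CREs are sites through which neuronal activity acts. Capitals mark matches on either strand to an E-box (CACGTG), a D-box (TTATGTAA or TTACGTAA), a full CRE (TGACGTCA) or a short CRE (TGACG, which the full CRE contains). The windows lie at chr11:69098699-69098998 and chr11:69099902-69100201 on the plus strand for Per1 and at chr4:151044616-151044915 on the minus strand for Per3.

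Per1, first start: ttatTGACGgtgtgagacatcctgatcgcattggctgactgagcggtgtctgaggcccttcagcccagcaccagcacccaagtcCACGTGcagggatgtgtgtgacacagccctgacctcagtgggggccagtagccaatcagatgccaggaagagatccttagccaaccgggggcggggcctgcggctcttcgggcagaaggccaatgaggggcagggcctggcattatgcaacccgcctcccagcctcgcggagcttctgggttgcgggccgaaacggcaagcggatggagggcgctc

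Per1, second start: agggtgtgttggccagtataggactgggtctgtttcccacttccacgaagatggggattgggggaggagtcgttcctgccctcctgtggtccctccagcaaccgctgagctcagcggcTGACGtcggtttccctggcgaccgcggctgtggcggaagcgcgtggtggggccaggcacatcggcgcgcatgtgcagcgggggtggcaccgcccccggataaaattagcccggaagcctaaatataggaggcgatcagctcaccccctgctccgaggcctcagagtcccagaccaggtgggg

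Per3: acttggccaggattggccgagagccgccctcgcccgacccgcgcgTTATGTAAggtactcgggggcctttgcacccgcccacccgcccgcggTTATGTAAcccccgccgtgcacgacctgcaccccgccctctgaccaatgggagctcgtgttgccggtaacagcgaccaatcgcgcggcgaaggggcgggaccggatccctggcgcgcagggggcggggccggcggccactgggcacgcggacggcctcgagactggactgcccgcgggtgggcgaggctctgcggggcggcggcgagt

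The first Per1 window held an E-box 166 bases before the start and a short CRE 246 bases before it. The second held a short CRE 132 bases before the start. The Per3 window held 2 D-boxes, 205 and 158 bases before the start, and no match to the E-box or either CRE form. Of 32851 RefSeq promoter windows, 7.15% held the E-box, 1.06% the D-box, 1.79% the full CRE and 20.81% the short CRE. A match is a run of letters and was not tested as a binding site.

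Libraries held 17570311 to 35716869 counts in control and 24563143 to 38680621 in deltamethrin. Each library gave 681 to 3183 counts for Per1, 272 to 1165 for Per2 and 452 to 1483 for Per3. The mitochondrial ribosomal RNAs took 8.49 to 40.2% of counts in control and 7.32 to 26.3% in deltamethrin. Of 6 markers each, 6 neuronal, 6 astrocyte, 6 oligodendrocyte and 6 microglial genes had counts in every library. Ddx3y, on the Y chromosome, had 388 to 2190 counts and Xist at most 6 in any library. Suprachiasmatic markers summed to 22.6 to 39.1 CPM (library-scaled counts) over all libraries, with 5 of 7 counted in every library. The smallest chi-square per degree of freedom between libraries of a group was 6.34, above the value near 1 of sampling noise alone, so libraries were counted as separate samples. The labels do not say that samples are separate animals, so spread and p-values are those between samples.

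Per1 was the most abundant of the 3 genes per length, and Per2 and Per3 lay close together. Levels between genes are given as CPM, scaled by TMM factors, per kilobase of exon (5.63, 5.86 and 9.61 kb in GENCODE M21). Per1 had 11.9 ± 2.55 CPM per kb (SD, n = 13) in the control libraries and 9.82 ± 1.74 (SD, n = 18) in the exposed ones. The corresponding Per2 levels were 4.55 ± 0.805 and 3.58 ± 0.359 CPM per kb, and those of Per3 were 3.69 ± 0.483 and 3.24 ± 0.367. Per1 was above both others in 13 of 13 control and 18 of 18 deltamethrin libraries. Per2 was above Per3 in 11 of 13 and 16 of 18. Their mean difference in deltamethrin was smaller than either SD, but these SDs ignore that both genes were measured in the same libraries. The difference was not tested.

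Per2 encodes a core clock repressor whose loss disturbs rhythms in mice. The gene, ENSMUSG00000055866, spans 91415982 to 91459324 on the minus strand of chromosome 1. Its level ran from 19.2 through a median of 26.7 to 36.1 CPM in control and from 17.8 through 20.5 to 25.6 CPM in deltamethrin. The highest control library, replicate 10, was also the highest for Per1, and 8 of 13 control libraries lay above the highest deltamethrin library. The ranges still overlapped, since the highest deltamethrin library (25.6 CPM) lay above the lowest control (19.2 CPM). Below that control lay 3 of 18 deltamethrin libraries. The log2 fold change, deltamethrin over control, was -0.35 ± 0.07 (SE).

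Per1 encodes a Period protein readily induced by light and activity. The gene, ENSMUSG00000020893, spans 69095217 to 69109960 on the plus strand of chromosome 11. It ran from 44.5 through 65.1 to 101.8 CPM in control and from 44.3 through 51.3 to 78.8 CPM in deltamethrin. Control replicates 10, 9 and 12 stood above all deltamethrin libraries, while control replicate 7 was nearly as low as the lowest of them. The log2 fold change was -0.28 ± 0.09 (SE). With log2 Fos added to the fit it was -0.17 ± 0.07 (SE), against -0.28 ± 0.06 for Per2 and -0.18 ± 0.07 for Per3 in the same fit.

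Per3 encodes the Period protein least needed for the rhythm itself. The gene, ENSMUSG00000028957, spans 151003652 to 151044665 on the minus strand of chromosome 4. It ran from 27.4 through 35.1 to 42.2 CPM in control and from 24.2 through 31.01 to 36.4 CPM in deltamethrin. Here 5 of 13 control libraries exceeded the highest deltamethrin library, among them replicate 7, the lowest of its group for Per1. Control replicate 2, at 42.0 CPM, was another. It had the lowest Per3 count (452) and TMM factor (0.613) of its group, with mitochondrial ribosomal RNA at 40.2% of counts. Its level therefore depended strongly on scaling. The log2 fold change was -0.19 ± 0.06 (SE). The gene lies within the span of Camta1 on the same strand, but the annotated exons of both genes share 0 bases.

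**Figure D1:**
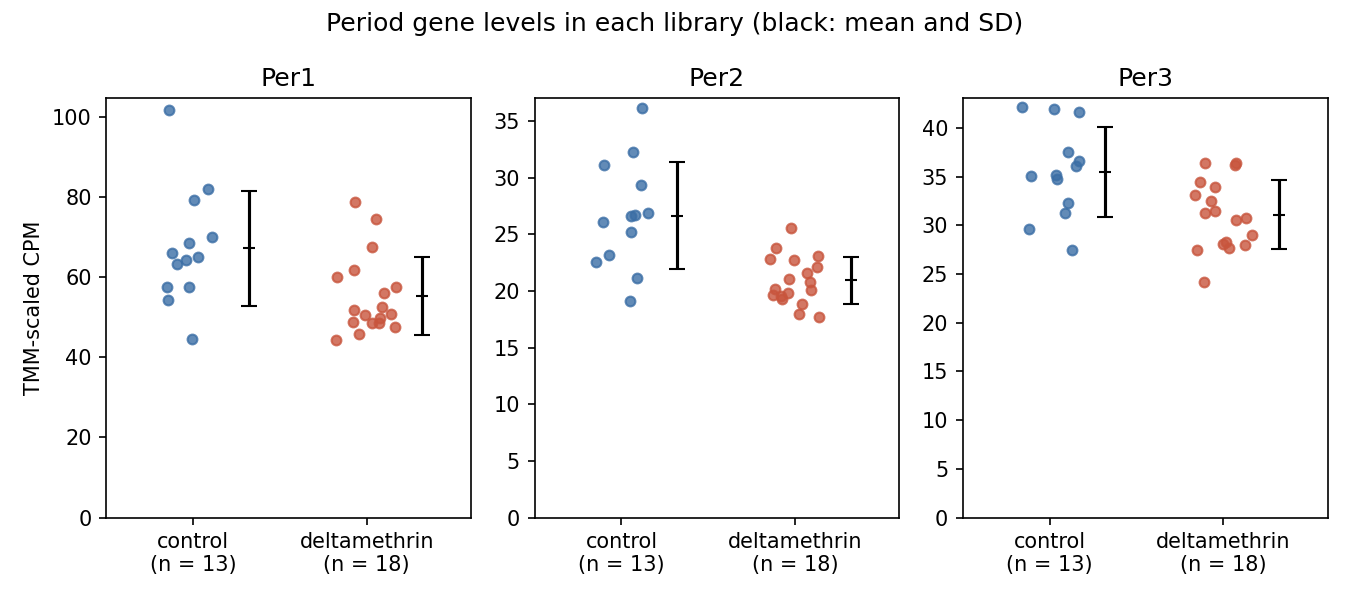
Level of Per1, Per2 and Per3 in each library, as TMM-scaled CPM, with 1 point per library in control (n = 13) and deltamethrin (n = 18). Black marks give the mean and SD; for Per2, 8 of 13 control libraries lie above the highest deltamethrin library.

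By edgeR's quasi-likelihood test over 19529 genes, 0 of the 3 had an adjusted p-value under 0.05, as for 0% of all genes. All 3 had a log2 fold change below 0, as did 49.5% of all genes. At an unadjusted p-value under 0.05 all 3 were lower, as were 2.37% of all genes (4.37% in either direction). Because this contrast chose the genes, nothing is read from those counts. The gene lists below were also chosen with earlier results of these data known. Their counts between the groups are therefore a description too, including where the share of all genes is given beside them. In bulk tissue, fewer cells of a type and less RNA per cell cannot be told apart.

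The spread between libraries was far above counting error. The Per2 coefficient of variation was 17.7% in control and 10.04% in deltamethrin, against 21.4 and 17.7% for Per1 and 13.1 and 11.4% for Per3. The 8300 genes with a mean of 10 to 100 CPM had median coefficients of 14.5 and 14.1%. Counting error alone gives 3.54% at the median Per2 count of 800 in control and 3.89% at 660 in deltamethrin. Differences in spread between the groups were not tested.

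Ratios of counts within a library do not depend on scaling. The Per1 to Per2 ratio ran from 2.10 through a median of 2.50 to 2.83 in control and from 2.13 through 2.62 to 3.41 in deltamethrin. The Per2 to Per3 ratio ran from 0.579 through 0.746 to 0.887 and from 0.571 through 0.679 to 0.772. So the first ratio varied least in control (SD of the log2 ratio 0.11, against 0.18 in deltamethrin), and the medians of the second differed in the direction of the larger fold change of Per2.

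Per1 and Per2 rose and fell together across control brains. Correlations were computed on log2 CPM within each group, which leaves out the difference between group means. Per1 with Per2 had Pearson r = 0.930 in control (Spearman rho = 0.973, permutation p = 1e-05 for each, the smallest the permutations give, adjusted 6e-05 over 6 correlations). Without the 2 libraries farthest from the median of Per1, r was 0.944. In deltamethrin r was 0.657 (rho = 0.606, permutation p = 0.00322 and 0.00927, adjusted 0.00672 and 0.0278), and 0.681 without the 2 farthest libraries.

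Per3 correlated with Per2 in both groups. Per2 with Per3 gave r = 0.670 in control (permutation p = 0.0118, adjusted 0.0178) and 0.653 in deltamethrin (permutation p = 0.00336, adjusted 0.00672). The Spearman values were 0.577 (permutation p = 0.0418, adjusted 0.0627) and 0.562 (permutation p = 0.0169, adjusted 0.0338). In control r was 0.390 (permutation p = 0.236) without the 2 libraries farthest from the median of Per2. Leaving these out also narrows the range of Per2, which by itself can lower r. The control relation missed the threshold without control replicate 5 (adjusted permutation p = 0.0968) or control replicate 10 (adjusted permutation p = 0.0527). In deltamethrin r was 0.592 without the 2 farthest.

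Per1 with Per3 did not pass in either group. The r was 0.490 in control (rho = 0.505, permutation p = 0.0881 and 0.0803, adjusted 0.0881 and 0.0814) and 0.481 in deltamethrin (rho = 0.424, permutation p = 0.0439 and 0.0814, adjusted 0.0527 and 0.0814). It was 0.598 and 0.452 without the 2 farthest libraries. Control replicate 7, lowest of its group for Per1 but the fifth highest for Per3, lay off the trend, and without it r in control was 0.662 (adjusted permutation p = 0.0215). In deltamethrin it passed in 4 of 18 fits that left out 1 library (replicate 4, 5, 6 or 9).

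**Figure D2:**
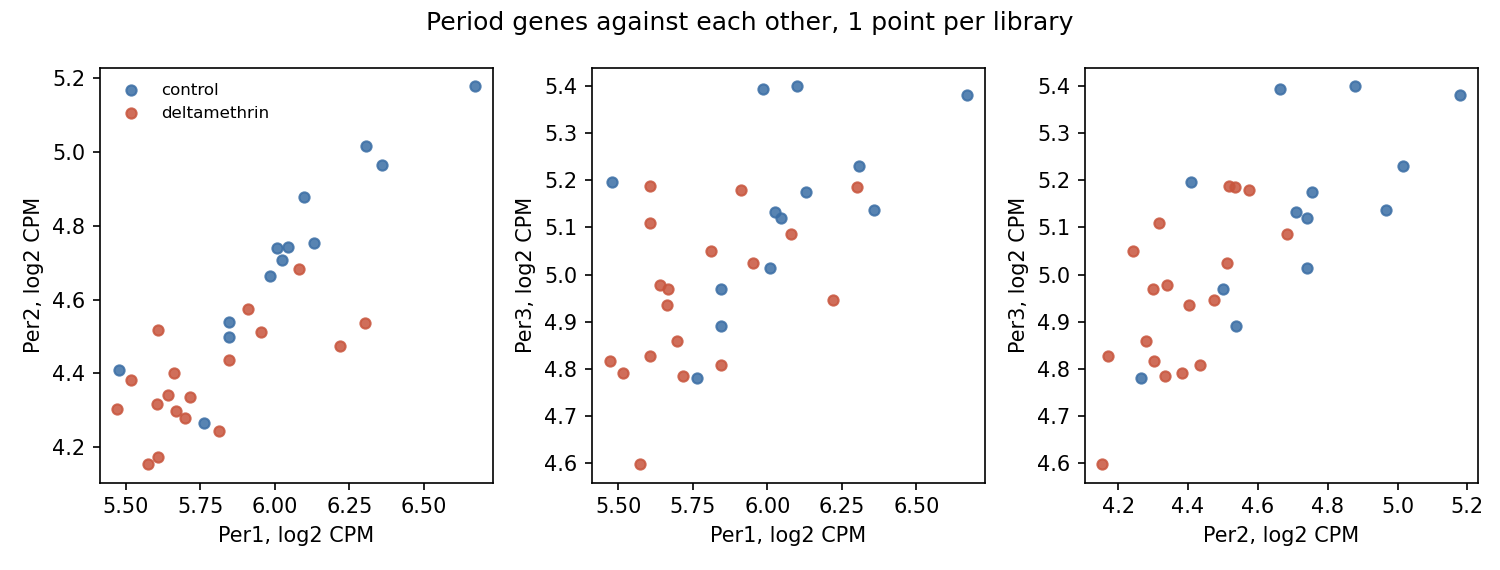
Log2 CPM of Per1, Per2 and Per3 plotted pairwise, 1 point per library, control blue and deltamethrin red. Control points in the Per1 and Per2 panel follow a narrow line (r = 0.930), and those of the panels with Per3 scatter more widely.

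The Per1 and Per2 correlation was lower in deltamethrin than in control. The difference in r was -0.27, with a permutation p = 0.00735 and an adjusted p of 0.0441 over 6 differences tested (3 Period pairs and 3 pairs with Fos). It was not held by all libraries, since the adjusted permutation p passed 0.05 in 17 of the 31 fits that left out 1 library and was largest (0.215) without deltamethrin replicate 11. With RLE factors it was 0.0511. The other 5 differences had an adjusted permutation p of 0.976.

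Activity-driven genes are switched on within neurons by recent firing. Of 20 such genes, 14 correlated with Per1 in control and 8 in deltamethrin at an adjusted permutation p under 0.05 over 120 correlations, all positive. For Per2 the counts were 6 and 0, and for Per3 0 and 0. The 3 genes were not compared with each other by a test. The median r over the 20 genes was 0.724 for Per1, 0.634 for Per2 and 0.176 for Per3 in control, and 0.550, 0.329 and 0.025 in deltamethrin. Over all 19528 other genes the medians lay between 0.0022 and 0.021.

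At an unadjusted permutation p under 0.05, 16 of 20 activity-driven genes correlated positively with Per1 in control and 16 of 20 in deltamethrin, against 7.15 and 7.61% of all genes. For Per2 it was 13 of 20 in control, against 4.94%, and 3 of 20 in deltamethrin, against 1.22%. None of the 20 did so with Per3, against 5.29% in control and 2.05% in deltamethrin. The control counts fell without libraries at the ends of the range. After adjustment over all 120, Per1 had 0 and Per2 had 0 of 20 in control without control replicate 10, and 1 and 0 without control replicate 7, and the total for both groups fell from 28 to 6 and 7. It was 17 without control replicate 5 and 18 without control replicate 9. By Spearman's rho 3 of the 120 passed. With 1 library left out in turn, the median r in control ran from 0.600 to 0.781 for Per1, 0.490 to 0.702 for Per2 and -0.09 to 0.338 for Per3. In deltamethrin it ran from 0.361 (without replicate 5) to 0.598 for Per1, 0.295 to 0.383 for Per2 and -0.05 to 0.073 for Per3.

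**Figure D3:**
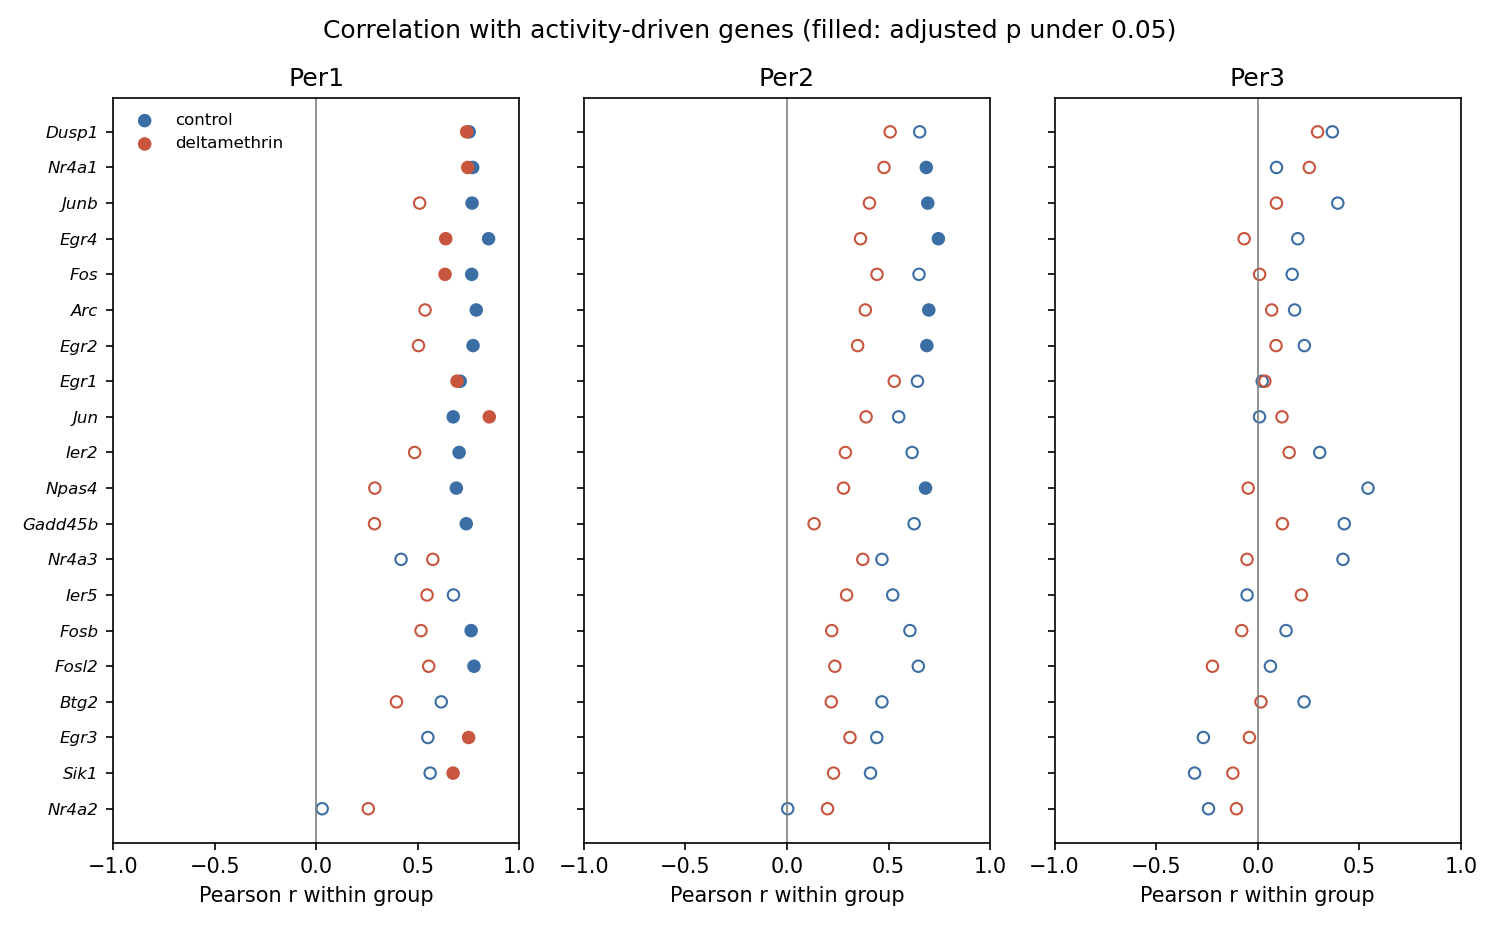
Pearson r within each group between each Period gene and 20 activity-driven genes, control blue and deltamethrin red, filled where the adjusted permutation p is under 0.05. All values for Per1 lie right of 0 while those for Per3 straddle it, with medians of 0.724 and 0.176 in control.

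Fos, the standard marker of recent neuronal activity, ran from 2.45 through 7.95 to 42.7 CPM in control and from 2.82 through 5.15 to 36.2 CPM in deltamethrin. Control replicate 10 was highest for Fos, Per1 and Per2, and control replicate 7 was lowest for Fos and Per1. With Per1, Fos had r = 0.765 in control (rho = 0.725, permutation p = 0.00256 and 0.00704, adjusted 0.0269 and 0.0694) and 0.634 in deltamethrin (rho = 0.455, permutation p = 0.00526 and 0.06, adjusted 0.0316 and 0.153). Without the 2 libraries most extreme for Fos, r was 0.475 and 0.274 (permutation p = 0.141 and 0.303). Leaving them out also narrows the range of Fos and the number of libraries, which by itself can lower r. The drop therefore cannot show that the relation rested on those libraries alone. Per1 with Fos also missed the threshold without control replicate 7 or 10 (adjusted permutation p = 0.0858 and 0.161) and, in deltamethrin, without replicate 1 or 5 (0.0518 and 0.138). With Per2, r was 0.650 in control and 0.443 in deltamethrin (permutation p = 0.0165 and 0.0642, adjusted 0.0603 and 0.145). With Per3 it was 0.170 and 0.0093 (adjusted permutation p = 0.726 and 0.985).

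**Figure D4:**
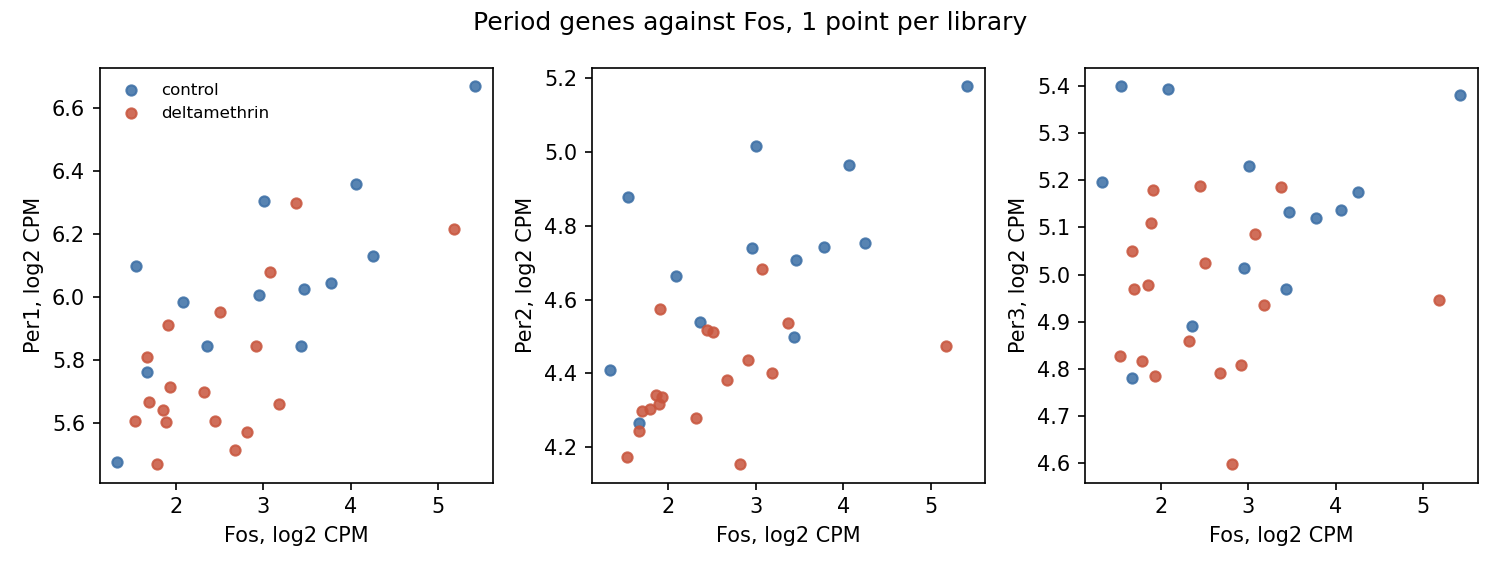
Log2 CPM of Per1, Per2 and Per3 (vertical axes) against log2 CPM of Fos (horizontal axes), 1 point per library, control blue and deltamethrin red. Control replicate 10 is the point at the upper right of the Per1 and Per2 panels, and the r of Per3 did not pass (r = 0.170 in control and 0.0093 in deltamethrin).

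Several other activity-driven genes also correlated with Per1. Dusp1, a phosphatase that turns off MAP kinases, had r = 0.753 with Per1 in control and 0.740 in deltamethrin (adjusted permutation p = 0.0269 and 0.0108). Nr4a1, an orphan nuclear receptor, had 0.770 and 0.746 (adjusted permutation p = 0.0269 and 0.0108). Jun, an AP-1 subunit named after its values were seen, had 0.852 with Per1 in deltamethrin (rho = 0.851, adjusted permutation p = 0.0024 and 0.0012) and 0.674 in control. Egr4 had 0.848 in control and 0.638 in deltamethrin, and Junb 0.767 and 0.509. The lowest mean r over the 3 Period genes and both groups belonged to Nr4a2 and Sik1, a kinase that damps CREB signalling. With Per1 alone Nr4a2 had 0.029 and 0.256, while Sik1 had 0.561 and 0.674 and passed in deltamethrin (adjusted permutation p = 0.0269). Of the 28 correlations that passed, 11 kept an unadjusted permutation p under 0.05 without the 2 libraries farthest from the median of the activity-driven gene.

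Between the groups, 14 of 20 activity-driven genes had a negative and 6 a positive log2 fold change, with a median of -0.26 against 0.0014 over all genes. Of all genes 49.5% had a negative one. By edgeR 0 of 20 had an adjusted p-value under 0.05, as for 0% of all genes. At an unadjusted p-value under 0.05, 3 of 20 were lower and 0 higher, against 2.37 and 2% of all genes. The 3 were Ier2 at -0.45 ± 0.14, Dusp1 at -0.37 ± 0.14 and Npas4, an activity-induced transcription factor, at -0.74 ± 0.34 (SE). Fos was at -0.68 ± 0.38 (SE).

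Of 108 correlations with 18 clock genes, 1 passed after adjustment, Per1 with Bhlhe40 (an E-box repressor) in deltamethrin at r = 0.751 (rho = 0.686, permutation p = 0.00045 and 0.0021, adjusted 0.0486 and 0.077). It was 0.554 without the 2 libraries farthest from the median of Bhlhe40, and with RLE factors 0 of 108 passed. Among the 11 repressors and outputs the median r with Per1 was 0.448 in control and 0.372 in deltamethrin. With Per2 it was 0.406 and 0.230, and with Per3 -0.22 and 0.183. At an unadjusted permutation p under 0.05, 3 and 5 of 11 correlated positively with Per1, against 7.15 and 7.61% of all genes. With Per2 it was 2 and 0 of 11, against 4.94 and 1.22%, and with Per3 1 and 0 of 11, against 5.29 and 2.05%.

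Ciart, a repressor of CLOCK and BMAL1, had the highest mean r with the 3 genes among clock genes. In control its r was 0.674 with Per1, 0.799 with Per2 and 0.664 with Per3, with adjusted permutation p of 0.152, 0.0648 and 0.152. In deltamethrin it was 0.372, 0.332 and 0.350. Usp2, a rhythmic deubiquitinase, had 0.727 and 0.624 with Per1 in control and deltamethrin (adjusted permutation p = 0.124 for each). Nr1d1, the nuclear receptor REV-ERB alpha, had 0.433 and 0.677 with Per1. Dbp, a D-box activator, had 0.441 and 0.045 with Per1, and Hlf and Nr1d2 had mean r near 0 over the 3 genes.

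The activating arm drives the Period genes. The median r of 7 activators and genes of opposite phase was -0.28 with Per1 in control and 0.090 in deltamethrin. Arntl, which encodes BMAL1, had r = -0.57 with Per1 (permutation p = 0.0422, adjusted 0.351), -0.46 with Per2 and -0.40 with Per3 in control. In deltamethrin these were 0.090, -0.07 and -0.14. Rorb had a mean r of -0.15 over the 3 genes and 2 groups. At an unadjusted permutation p under 0.05, 1 of 7 correlated negatively with Per1 in control, against 5.93% of all genes, and 0 in deltamethrin, against 7.28%. With Per2 and Per3 it was 0 of 7 in control, against 2.86 and 3.4% of all genes, and 0 of 7 in deltamethrin, against 2.21 and 1.76%. The differences between groups in these correlations were not tested.

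**Figure D5:**
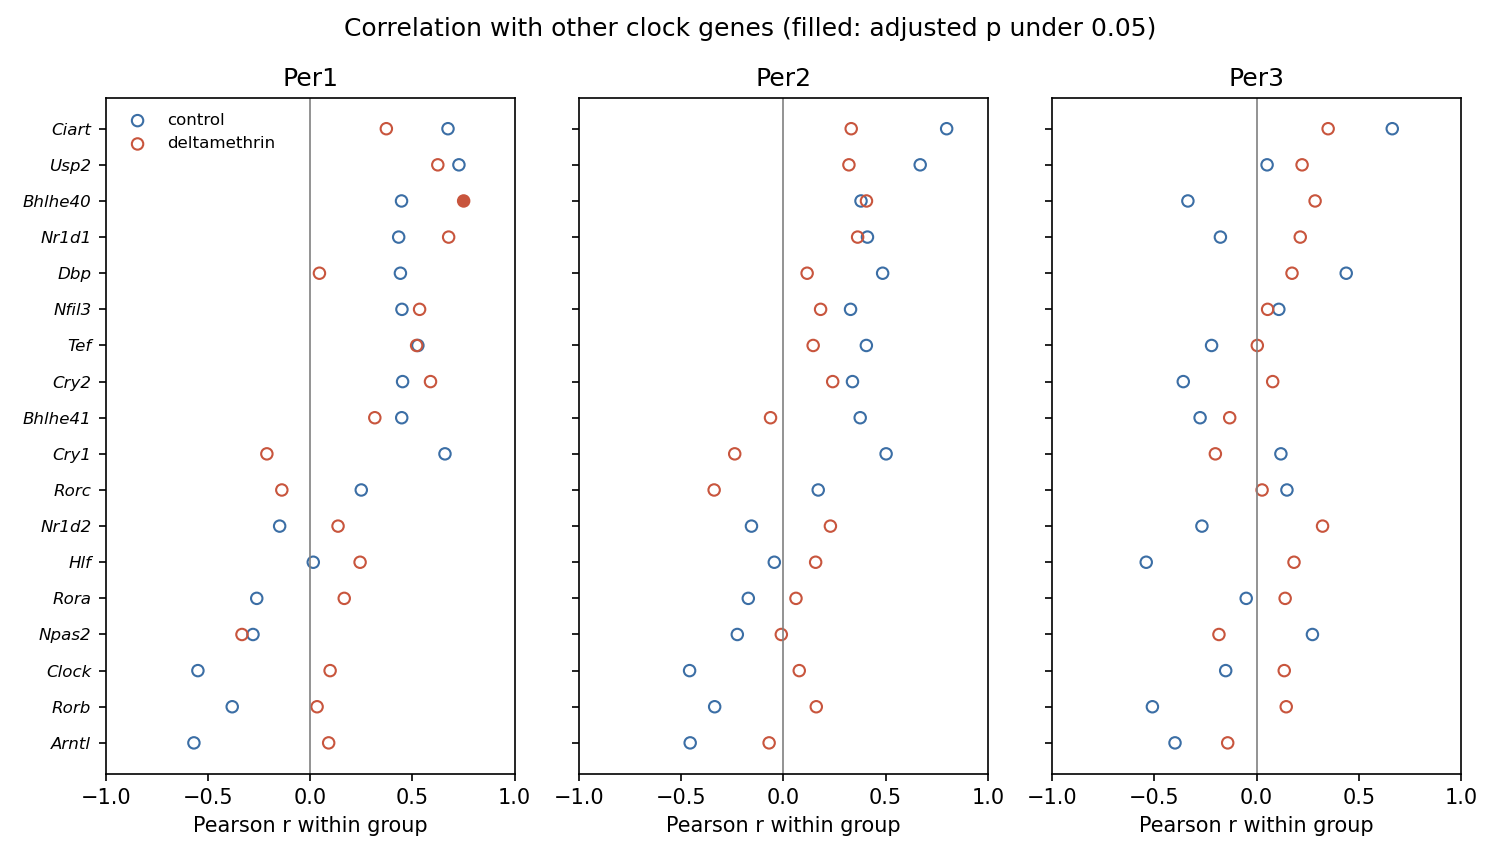
Pearson r within each group between each Period gene and 18 other clock genes, control blue and deltamethrin red, filled where the adjusted permutation p is under 0.05. Ciart lies right of 0 in every panel, and Arntl lies left of 0 in control (-0.57 with Per1).

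Between the groups, 10 of 11 clock repressors and outputs had a negative log2 fold change, with a median of -0.07, as did 49.5% of all genes. By edgeR 0 of 11 had an adjusted p-value under 0.05, as for 0% of all genes. At an unadjusted p-value under 0.05, 2 of 11 were lower, Ciart at -0.42 ± 0.09 and Dbp at -0.33 ± 0.08 (SE), and 0 higher, against 2.37 and 2% of all genes. Of 7 activators and genes of opposite phase, 5 were positive and 2 negative (median 0.11), with Arntl at 0.12 ± 0.05 (SE) the 1 with an unadjusted p-value under 0.05, against 2% of all genes higher. The cryptochromes, partners of PER proteins, were at -0.07 ± 0.05 for Cry1 and -0.03 ± 0.08 for Cry2 (SE).

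Another list held 10 genes that act on PER and CRY proteins after translation, among them the PER kinases Csnk1d and Csnk1e and the ubiquitin ligase part Btrc. All 10 had a positive log2 fold change, between 0.027 and 0.16, while 49.5% of all genes had a negative one. By edgeR 0 of 10 had an unadjusted p-value under 0.05, against 4.37% of all genes, a share at which 0 of 10 says little. Csnk1d was at 0.04 ± 0.09 and Csnk1e at 0.03 ± 0.08 (SE). Gene by gene these values lay within their standard errors, except that of Gsk3b at 0.16 ± 0.14 (SE).

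Of 11 glucocorticoid-responsive genes tested, 3 correlated with Per1 and 3 with Per2 in control after adjustment. Of 12 listed, 11 passed the count filter (Mt2 did not), and 7 of 66 correlations passed by r and 12 by rho. Map3k6, a stress-responsive kinase, had r = 0.882 with Per1 and 0.852 with Per2 in control (rho = 0.863 and 0.835, permutation p = 0.00013 and 0.00017, adjusted 0.00561 for each). Plin4, a lipid droplet coat gene, had 0.764 and 0.803 (adjusted permutation p = 0.0157 and 0.015), and Hif3a 0.790 and 0.744 (adjusted permutation p = 0.015 and 0.0374). These 6 r were 0.642 to 0.842 without the 2 libraries farthest from the median of the glucocorticoid-responsive gene. In deltamethrin Klf9, a hormone-induced transcription factor, was the 1 gene that passed by r, with 0.644 with Per1 (rho = 0.668, permutation p = 0.00397, adjusted 0.0374). By rho alone Per1 with Fkbp5 (0.637, adjusted permutation p = 0.0332) and Per3 with Hif3a (0.744, adjusted permutation p = 0.00964) also passed there. At an unadjusted permutation p under 0.05, 7 of 11 correlated positively with Per1 in control and 5 in deltamethrin, against 7.15 and 7.61% of all genes. With Per2 it was 4 and 1 of 11, against 4.94 and 1.22%, and with Per3 0 and 1 of 11, against 5.29 and 2.05%. Without control replicate 7 the number that passed by r was 2, namely 1 with Per1 and 1 with Per2 in control.

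The median r of the 11 genes in control was 0.599 with Per1, 0.495 with Per2 and 0.065 with Per3, and in deltamethrin 0.434, 0.127 and 0.046. The lowest mean r belonged to Pdk4 and Fkbp5. Between the groups 9 of 11 had a negative log2 fold change (median -0.11), as did 49.5% of all genes. By edgeR 0 of 11 had an adjusted p-value under 0.05, as for 0% of all genes. At an unadjusted p-value under 0.05, 3 were lower and 1 higher, against 2.37 and 2% of all genes, namely Hif3a at -0.38 ± 0.12, Tsc22d3 at -0.18 ± 0.07, Sgk1 at -0.22 ± 0.10 and Pdk4 at 0.19 ± 0.09 (SE). No hormone level was given in the labels.

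Across all tested genes, the 5 most like each Period gene were ranked by r over the 31 libraries after removing each group mean. For Per1 they were Per2 (0.812), Dusp4 (0.796), Zfp335 (0.786), Rnf31 (0.777) and Jun (0.764), and for Per2 they were Per1, Zfp335 (0.708), Edc4 (0.698), Ldhd (0.687) and Snapc4 (0.659). For Per3 they included Slc7a6 (0.752), Leng8 (0.730), Wdr90 (0.728) and Gm45869 (0.725). Per1 and Per2 were thus each other's nearest gene among 19528. Per3 ranked 7 for Per2 (0.648) and 828 for Per1 (0.485), while Per2 ranked 29 and Per1 ranked 373 for Per3. Fos ranked 21 for Per1, 48 for Per2 and 6664 for Per3. Ciart ranked 737, 93 and 427, and Dbp 6749, 3527 and 2782.

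Markers of brain regions and other cells had log2 fold changes of 1 sign in several lists, with 0 adjusted calls in any list. Of all genes 49.5% had a negative value. Of 10 choroid plexus markers 9 had a negative value, and their summed level ran from 272 to 1317 CPM in control and 252 to 735 in deltamethrin. All 9 cerebellar markers had a positive value (93.7 to 607 CPM and 148 to 769) and all 8 striatal markers a negative one (536 to 1027 and 429 to 1109). All 5 blood markers were negative (median -0.29; 492 to 1668 and 380 to 1241 CPM) and all 6 astrocyte markers positive (median 0.16; 1393 to 2576 and 1344 to 4366 CPM). At an unadjusted p-value under 0.05, 2 of 10 choroid plexus and 1 of 8 striatal markers were lower, against 2.37% of all genes, and 0 cerebellar, blood or astrocyte markers passed. In lists of mixed sign, 1 of 6 neuronal and 1 of 6 endothelial markers were higher, against 2% of all genes, and 1 of 6 microglial markers was lower, against 2.37%. No oligodendrocyte or suprachiasmatic marker passed. Of 2 muscle or liver markers tested, 1 was lower, against 2.37% of all genes. Of these markers 0 were at 0 throughout. The Period genes were also compared with 8 measures of the libraries, the choroid plexus, striatal and cerebellar marker means included. Of these 48 correlations, 0 had an adjusted permutation p under 0.05 (0 by rho), and 4 had an unadjusted one. The strongest was Per1 with the log2 mitochondrial rRNA share in deltamethrin, at r = -0.64 (rho = -0.60, permutation p = 0.00442, adjusted 0.212). It was -0.41 without the 2 libraries farthest from the median of that share. With that share in the edgeR fit the log2 fold changes were -0.30 ± 0.08 for Per1, -0.36 ± 0.07 for Per2 and -0.19 ± 0.06 for Per3 (SE). The part of these markers in the Period values between groups was not tested.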

How the data were processed

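The authors deposited raw counts per Ensembl gene for 31 samples, whole numbers with no normalization. The submitters' processing notes name Trimmomatic, HISAT2, SAMtools, MultiQC and GRCm38, and the counting tool, annotation and use of strand are not given in the sources used here. Columns were matched to samples by title and groups taken from the agent label. The members and gene lists were chosen with earlier results of these data known. Genes were filtered with filterByExpr of edgeR 4.0.16 (minimum count 10, minimum total 15; R 4.3.3), leaving 19529, scaled by TMM and compared with the quasi-likelihood test (robust, no covariates, Benjamini-Hochberg). Log2 CPM used a prior count of 2. The SE of a fold change is its absolute log2 value over the root of the F statistic. Correlations within a group used 100000 two-sided permutations, adjusted within each family of 6, 120, 108, 66 or 48, and differences in correlation were tested on Fisher z by exchanging libraries after centring and scaling within groups. Both tests were checked on simulated data. The 2 farthest libraries were those farthest from the median of the first gene named in a pair of Period genes. In all other correlations they were those farthest for the other gene or measure. DESeq2 1.42.0 was an alternative.

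Genes named were the 3 members, Fos, the up to 4 genes of each list with the highest and 2 with the lowest mean r, up to 4 of each list with an unadjusted p-value under 0.05 and the 5 most like each member, of which 1 for Per3 is not reported here. Others (Jun, Cry1, Cry2 and the turnover genes) were chosen after values were seen. Coordinates are of GENCODE M21 (GRCm38), 1-based and matched by gene ID.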

Additional observations from a re-analysis of the deposited data

Results flagged for a closer look

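The correlation of Per1 with Per2 differed between the groups, being 0.930 in control and 0.657 in deltamethrin, a difference of -0.27 (permutation p = 0.00735, adjusted 0.0441 over 6 differences). The adjusted p ranged from 0.0063 to 0.215 when 1 library was left out, and was above 0.05 in 17 of 31 such fits.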

How the results depend on the processing

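The fold changes of the 3 Period genes stayed negative under every alternative run, and 0 genes had an adjusted p-value under 0.05 in each. Without scaling factors the edgeR test gave -0.24 ± 0.12 for Per1 and -0.13 ± 0.08 for Per3 (SE, unadjusted p = 0.0522 and 0.124). Both thus missed the unadjusted threshold, while Per2 at -0.31 ± 0.10 (SE) kept it (unadjusted p = 0.00303). Leaving out 1 library gave -0.32 to -0.22 for Per1, -0.38 to -0.31 for Per2 and -0.21 to -0.17 for Per3. The smallest adjusted p-value over all genes was 0.0531 with DESeq2 and 0.0521 to 0.982 when 1 library was left out. The count of 853 at an unadjusted threshold of 0.05 became 1948 with no count filter, 1796 with the mitochondrial rRNA covariate and 526 to 1389 when 1 library was left out.

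Without scaling factors Per1 and Per2 with Fos in deltamethrin were slightly lower (0.605 and 0.430), and the counts that passed were higher, at 59 instead of 28 for activity-driven genes, 44 instead of 1 for clock genes and 45 instead of 7 for glucocorticoid-responsive genes, and r = 0.80 and 0.674 for Per1 with Per3 in control and deltamethrin, 0.723 for Per2 with Fos in control and a difference of -0.17 for Per1 with Per2 (adjusted permutation p = 0.0926). With RLE factors that difference was -0.28 (0.0511) and the clock count 0. With the mitochondrial rRNA share removed the clock count was 4, Per1 with Per3 in control 0.699 and Per3 with Fos in deltamethrin -0.031. With log2 Fos removed, added after seeing the data as were the Fos covariate and the counts with 1 library left out, Per1 with Per3 was 0.568 in control and 0.615 in deltamethrin, and Per1 with Per2 still passed at 0.885 and 0.543. The causes were not tested.

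With 1 library left out, Per1 with Per2 ran from 0.903 to 0.962 in control and 0.604 to 0.727 in deltamethrin, Per1 with Per3 from 0.350 to 0.662 and 0.366 to 0.589, and Per2 with Per3 from 0.526 to 0.761 and 0.564 to 0.720. With Fos, Per1 ran from 0.624 to 0.848 and 0.483 to 0.674, Per2 from 0.484 to 0.788 and 0.383 to 0.534, and Per3 from -0.074 to 0.378 and -0.087 to 0.071. Differences in r ran from -0.33 to -0.20 for Per1 with Per2, -0.18 to 0.13 for Per1 with Per3, -0.11 to 0.13 for Per2 with Per3, and with Fos from -0.28 to 0.010 for Per1, -0.35 to -0.04 for Per2 and -0.37 to 0.084 for Per3. Counts past the threshold ran from 6 to 35 for activity-driven, 0 to 5 for clock and 2 to 8 for glucocorticoid-responsive genes. No paired analysis was possible because the labels give no litter or pair, and replicate numbers only follow sample order within each group. Samples of the same litter could therefore not be grouped either. At 13 and 18 libraries a correlation that missed the threshold was not shown to be absent.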
